A study of Mus musculus with 10 samples.

Results

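The type 2 cytokine locus on mouse chromosome 11 and the Gata3 locus on chromosome 2 were examined for chromatin accessibility in thymic invariant natural killer T (iNKT) cells. Members were the regions of the deposited table that overlapped the body of Kif3a, Il4, Il13, Rad50 or Il5, or lay within 50 kb of the start of any of them, and the regions within 300 kb of the Gata3 start. This gave 137 of 94823 regions, 58 on chromosome 11 and 79 around Gata3. The windows also held the starts of Sept8 and Irf1 on chromosome 11, and of Taf3, Atp5c1, Kin, Itih2 and Itih5 on chromosome 2, besides 9230102O04Rik and 4930412O13Rik inside the Gata3 body.

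Accessibility was read by ATAC-seq, where Tn5 transposase cuts open DNA and leaves adapters there, in thymic cells sorted as CD27+ CD122+ (iNKT1) or CD27+ CD122- (iNKT2). The cells came from age-matched mice, 8 to 10 weeks old, of the BALB/c strain and of SKG mice, which carry a hypomorphic Zap70 mutation on the BALB/c background with reduced T cell receptor signalling in every T cell. Each genotype gave 2 iNKT1 and 3 iNKT2 libraries, 10 in all in 4 groups. The labels do not say whether the libraries of a group came from separate animals, so p-values measure the spread between libraries. In sorted bulk populations a smaller share of open cells and less open DNA per cell cannot be told apart.

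Il4, Il13 and Il5 encode the signature cytokines of type 2 responses and lie beside each other in mammals, with the DNA repair gene Rad50 between Il13 and Il5 and the kinesin gene Kif3a beyond Il4. In T helper cells the 3′ end of Rad50 carries a locus control region for the cytokine genes, a conserved noncoding element lies between Il4 and Il13, and an enhancer and a silencer lie just beyond the 3′ end of Il4. Gata3 encodes the zinc finger factor that is needed for T cell development and drives type 2 cytokine expression, and a T and natural killer cell enhancer lies far downstream of it. iNKT2 cells are the thymic subset that makes interleukin-4 at steady state, and iNKT1 cells depend on the T-box factor T-bet.

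The regions on which the results turned are shown by the 300 bases at their centre (GRCm38, plus strand, 5′ to 3′). At each locus they are the regions of smallest adjusted p, not already shown, among those called higher in BALB/c iNKT2, lower in BALB/c iNKT2, lower in SKG iNKT2 and different between the genotypes in iNKT2, so they were chosen by their change. Capitals mark matches, on either strand, to the GATA letters (AGATAA or AGATAG, and likewise TGATAA or TGATAG), the NFAT core GGAAA, the Runt letters (TGTGGTT or else TGCGGTT) and the T-box letters GGTGTGA.
Before Il5, chr11:53719736-53720035, intergenic, higher in iNKT2: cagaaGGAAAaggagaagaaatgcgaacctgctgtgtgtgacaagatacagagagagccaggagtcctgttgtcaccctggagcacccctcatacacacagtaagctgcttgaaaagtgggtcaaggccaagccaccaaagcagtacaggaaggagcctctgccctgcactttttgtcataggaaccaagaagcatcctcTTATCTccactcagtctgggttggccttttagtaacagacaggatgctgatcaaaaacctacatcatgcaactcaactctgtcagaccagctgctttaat
Between Il4 and Il13, chr11:53625332-53625631, intergenic, lower in iNKT2: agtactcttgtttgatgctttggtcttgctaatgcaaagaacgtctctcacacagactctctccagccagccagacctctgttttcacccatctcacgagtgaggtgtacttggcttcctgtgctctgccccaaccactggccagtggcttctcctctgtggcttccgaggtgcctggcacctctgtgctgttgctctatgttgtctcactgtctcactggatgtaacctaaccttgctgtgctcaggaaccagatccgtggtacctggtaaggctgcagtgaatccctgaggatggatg
Beyond the 3′ end of coding Il4, chr11:53609636-53609935, lower in iNKT2: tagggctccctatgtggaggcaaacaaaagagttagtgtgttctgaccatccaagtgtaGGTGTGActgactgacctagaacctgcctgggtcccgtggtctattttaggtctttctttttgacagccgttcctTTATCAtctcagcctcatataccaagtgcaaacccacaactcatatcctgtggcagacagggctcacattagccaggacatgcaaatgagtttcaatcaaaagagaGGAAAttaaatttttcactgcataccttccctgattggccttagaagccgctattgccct
Kif3a intron, chr11:53592735-53593034, higher in SKG iNKT2: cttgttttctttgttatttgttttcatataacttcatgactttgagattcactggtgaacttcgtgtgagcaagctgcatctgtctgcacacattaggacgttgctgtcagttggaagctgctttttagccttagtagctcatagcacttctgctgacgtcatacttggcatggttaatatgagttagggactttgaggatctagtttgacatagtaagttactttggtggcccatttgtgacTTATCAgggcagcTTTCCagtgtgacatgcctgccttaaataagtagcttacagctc
Gata3 distal downstream, chr2:9693868-9694167, intergenic, higher in iNKT2 and lower in SKG iNKT2: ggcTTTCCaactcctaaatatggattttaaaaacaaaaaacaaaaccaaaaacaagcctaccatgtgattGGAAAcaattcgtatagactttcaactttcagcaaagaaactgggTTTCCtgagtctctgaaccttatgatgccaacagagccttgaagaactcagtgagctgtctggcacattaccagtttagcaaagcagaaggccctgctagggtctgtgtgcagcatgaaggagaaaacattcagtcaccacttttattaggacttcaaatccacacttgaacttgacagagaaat
Gata3 intron, chr2:9862377-9862676, lower in iNKT2: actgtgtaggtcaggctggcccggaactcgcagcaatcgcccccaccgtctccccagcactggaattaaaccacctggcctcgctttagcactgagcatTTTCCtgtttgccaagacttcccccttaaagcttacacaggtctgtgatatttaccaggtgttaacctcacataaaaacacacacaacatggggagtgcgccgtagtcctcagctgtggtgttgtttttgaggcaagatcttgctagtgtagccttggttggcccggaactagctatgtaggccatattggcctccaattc
Gata3 downstream, chr2:9801515-9801814, intergenic, lower in iNKT2: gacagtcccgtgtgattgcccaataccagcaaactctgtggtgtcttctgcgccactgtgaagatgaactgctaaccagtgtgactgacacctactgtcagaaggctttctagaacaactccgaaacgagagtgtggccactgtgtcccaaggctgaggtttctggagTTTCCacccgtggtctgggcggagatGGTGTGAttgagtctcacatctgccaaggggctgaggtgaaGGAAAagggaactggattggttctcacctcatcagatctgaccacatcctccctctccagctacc
Gata3 distal downstream, chr2:9666101-9666400, intergenic, lower in SKG iNKT2: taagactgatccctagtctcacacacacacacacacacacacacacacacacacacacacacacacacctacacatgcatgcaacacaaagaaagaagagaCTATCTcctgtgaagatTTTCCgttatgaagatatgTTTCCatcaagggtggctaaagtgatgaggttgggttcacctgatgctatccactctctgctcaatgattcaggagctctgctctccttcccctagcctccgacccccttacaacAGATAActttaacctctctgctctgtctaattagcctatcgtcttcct
The region before Il5 and the Kif3a intron each held 1 GATA and 1 NFAT core match. The region beyond the 3′ end of Il4 held 1 GATA, 1 NFAT core and 1 T-box match, and the window between Il4 and Il13 held none of these letters. At Gata3, the last of these windows held 2 GATA and 2 NFAT core matches, and the 1 with the T-box letters was the region lower in iNKT2 downstream of the gene. Over all 94823 regions, 36.2% of such windows held the GATA letters, 64.1% the NFAT core, 14.8% the Runt letters and 5.48% the T-box letters. A match is a run of letters and not a measured site.

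Insertions inside the listed regions totalled 14988590 to 36342635 a library, and levels below are CPM, the insertions in a region scaled to counts-per-million units of the TMM-adjusted library total, per region and not per length. At the starts of marker genes, summed levels of the 4 iNKT1 genes (Tbx21, Ifng, Il2rb, Cxcr3) were 196 to 220 in iNKT1 libraries and 43.8 to 63.8 in iNKT2 libraries. The 3 iNKT2 genes (Il4, Gata3, Il17rb) summed to 133 to 172 in iNKT1 libraries and 110 to 155 in iNKT2 libraries, so their starts together were not more open in iNKT2. Of these, Il17rb averaged 8.05 and 6.93 in BALB/c and SKG iNKT1 and 17.1 and 18.8 in BALB/c and SKG iNKT2, while the means of Il4 and Gata3 were lower in iNKT2 in each genotype. The iNKT17 genes Il17a, Il23r and Ccr6 summed to 0.128 to 0.578 in iNKT1, 8.31 to 12.4 in BALB/c iNKT2 and 6.33 to 8.45 in SKG iNKT2. No region held the start of any of the 4 markers listed for double-positive thymocytes, B cells, or mast cells and basophils, while 1 of 4 myeloid genes (Itgam) had one, at 0 to 3.91. The part of iNKT17-type accessibility in the differences below was not tested.

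At the cytokine locus, the differences called between iNKT2 and iNKT1 cells lay outside the gene starts, and no region over the start of Il4, Il13, Rad50 or Kif3a was called. In BALB/c mice, 10 of 58 regions were higher in iNKT2 and 2 lower (17.2% and 3.45%), where all 94823 regions gave 15.5% higher and 6.36% lower. In SKG mice 7 were higher and 3 lower (12.1% and 5.17%), against 10.2% higher and 6.96% lower over all regions. A region was called at an edgeR adjusted p under 0.01 and a change of at least 4-fold. The shares called higher were near those of the whole table and the shares called lower below them. Of the regions called higher, 6 were called in both genotypes, which is 60% of the BALB/c list and 85.7% of the SKG list. The same share over all regions is not given here, so this overlap is not read as particular to the locus. The 58 regions had a median log2 difference of 0.26 (BALB/c) and 0.13 (SKG), beside 0.06 and 0.14 over all regions.

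**Figure D1:**
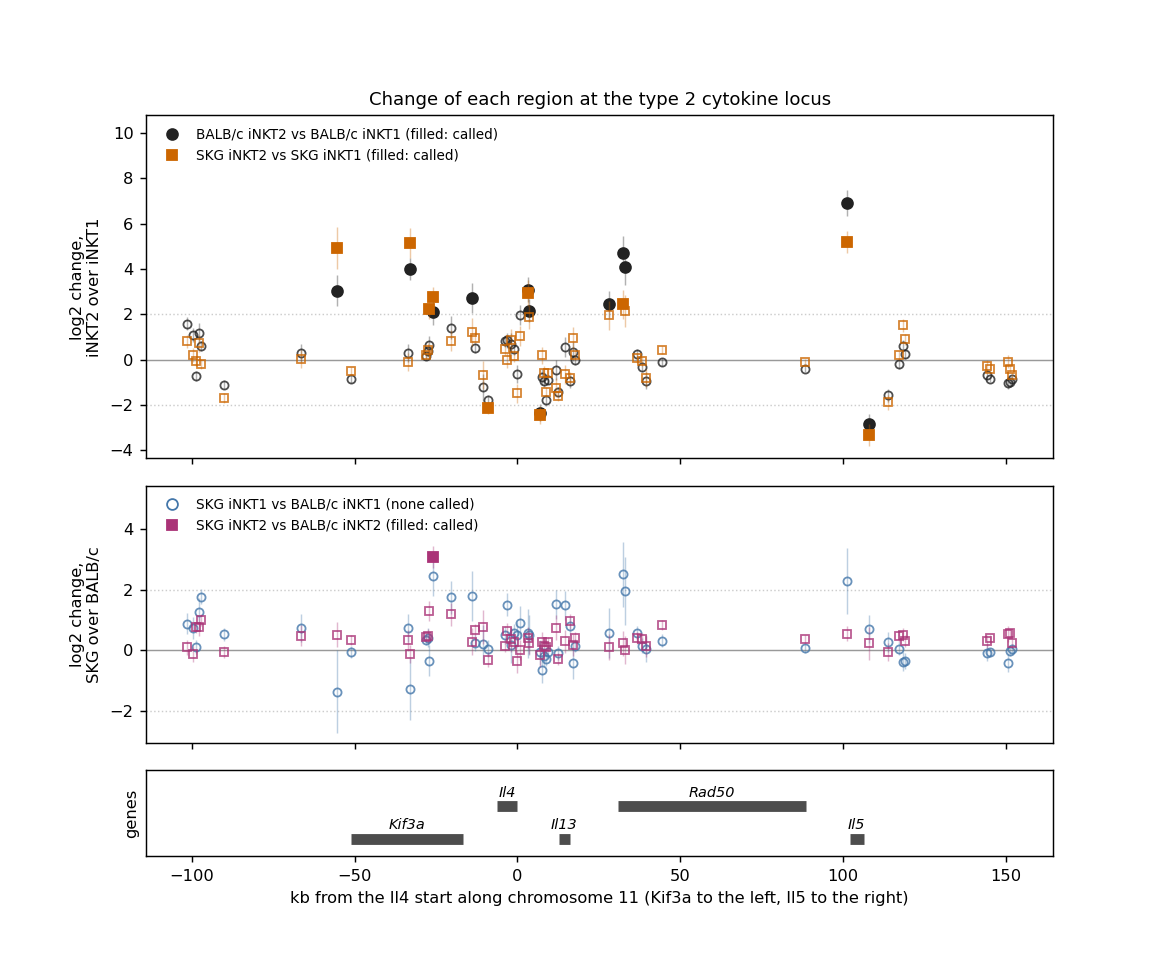
Log2 change of each of the 58 regions of the cytokine locus (y axis, with standard errors) by distance in kb from the Il4 start (x axis), between subsets (top) and between genotypes (bottom), with gene bodies below. Filled symbols passed an adjusted p under 0.01 and 4-fold (dotted lines). The region before Il5 rose most between the subsets, and the filled genotype symbol is the Kif3a intron.

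Il5, which encodes the eosinophil growth factor interleukin-5, had no region over its start. The nearest, 731 bases before it (chr11:53719708-53720063, intergenic), was at 0.0299 and 0.0441 CPM in BALB/c iNKT1 and at 0 and 0.385 CPM in SKG iNKT1. It held 4.80, 4.63 and 5.24 in BALB/c iNKT2 and 6.75, 6.61 and 8.16 in SKG iNKT2, so every iNKT2 library lay above every iNKT1 library. The log2 change was 6.91 ± 0.565 (SE, edgeR adjusted p = 1.1e-07) in BALB/c and 5.18 ± 0.480 (edgeR adjusted p = 4.7e-07) in SKG. Since the BALB/c iNKT1 libraries held 2 insertions in all, against 455, the fitted value depends on the prior count, and the ratio of pooled levels was 136 (exact 95% interval 37.4 to 1130, counting error only). SKG and BALB/c iNKT2 did not overlap here, but the log2 difference of 0.55 ± 0.247 did not pass the test (edgeR adjusted p = 0.12). Immediately beyond Il5 the order was the opposite: an intergenic region at chr11:53726628-53726980 held 1.64 and 2.51 in BALB/c iNKT1, 3.47 and 3.21 in SKG iNKT1, 0.345, 0.344 and 0.124 in BALB/c iNKT2, and 0.475, 0.0918 and 0.405 in SKG iNKT2. It was lower in iNKT2 by -2.85 ± 0.471 in BALB/c and -3.31 ± 0.483 in SKG on the log2 scale (edgeR adjusted p = 9.0e-05 and 4.0e-05).

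At its principal start, Il4, which encodes the cytokine that defines iNKT2 cells, was not more open in iNKT2 than in iNKT1. The region over its annotated start (chr11:53618301-53618716, 5′ UTR and first exon included) held 11.6 and 10.3 in BALB/c iNKT1 and 19.0 and 12.1 in SKG iNKT1. It held 8.53, 6.06 and 6.68 in BALB/c iNKT2 and 10.1, 3.49 and 2.23 in SKG iNKT2. All iNKT2 libraries were thus lower than the iNKT1 libraries of their genotype, with log2 changes of -0.63 ± 0.395 (edgeR adjusted p = 0.18) and -1.49 ± 0.404 (edgeR adjusted p = 6.3e-03). The second was called, at -2.41, without SKG iNKT2 replicate 1 (edgeR adjusted p = 1.4e-06) and without both iNKT2 libraries numbered 1 (edgeR adjusted p = 1.1e-11). A second region inside Il4, over the start of a shorter transcript (chr11:53617204-53617997), was at 12 and 11.2 in BALB/c iNKT1 and 18.2 and 16.2 in SKG iNKT1. In iNKT2 it was at 21.9, 13.2 and 12.6 in BALB/c and 26.3, 15.9 and 15.5 in SKG. All BALB/c iNKT2 libraries were thus above the BALB/c iNKT1 libraries, the opposite of the principal start, while the SKG groups overlapped. The subset changes of this second region, 0.45 ± 0.255 and 0.17 ± 0.256, did not pass (edgeR adjusted p = 0.13 and 0.60). Its SKG value turned to -0.14 without the libraries numbered 1. None of the 5 regions in the Il4 body was called in any comparison.

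The start of Il13, the effector cytokine of mucus and airway responses, followed the subset order of the principal Il4 start. Its region (chr11:53634540-53634876) held 5.08 and 5.47 in BALB/c iNKT1, 10.1 and 8.21 in SKG iNKT1, 3.61, 2.43 and 2.02 in BALB/c iNKT2, and 7.19, 4.36 and 3.78 in SKG iNKT2. The iNKT2 libraries were lower in each genotype without overlap, by -0.96 ± 0.284 (edgeR adjusted p = 8.1e-03) and -0.81 ± 0.279 (edgeR adjusted p = 0.024), short of 4-fold. The SKG libraries were higher than BALB/c in each subset, again without overlap and without a call (log2 0.80 ± 0.307 in iNKT1 and 0.95 ± 0.261 in iNKT2, edgeR adjusted p = 0.18 and 0.014).

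**Figure D2:**
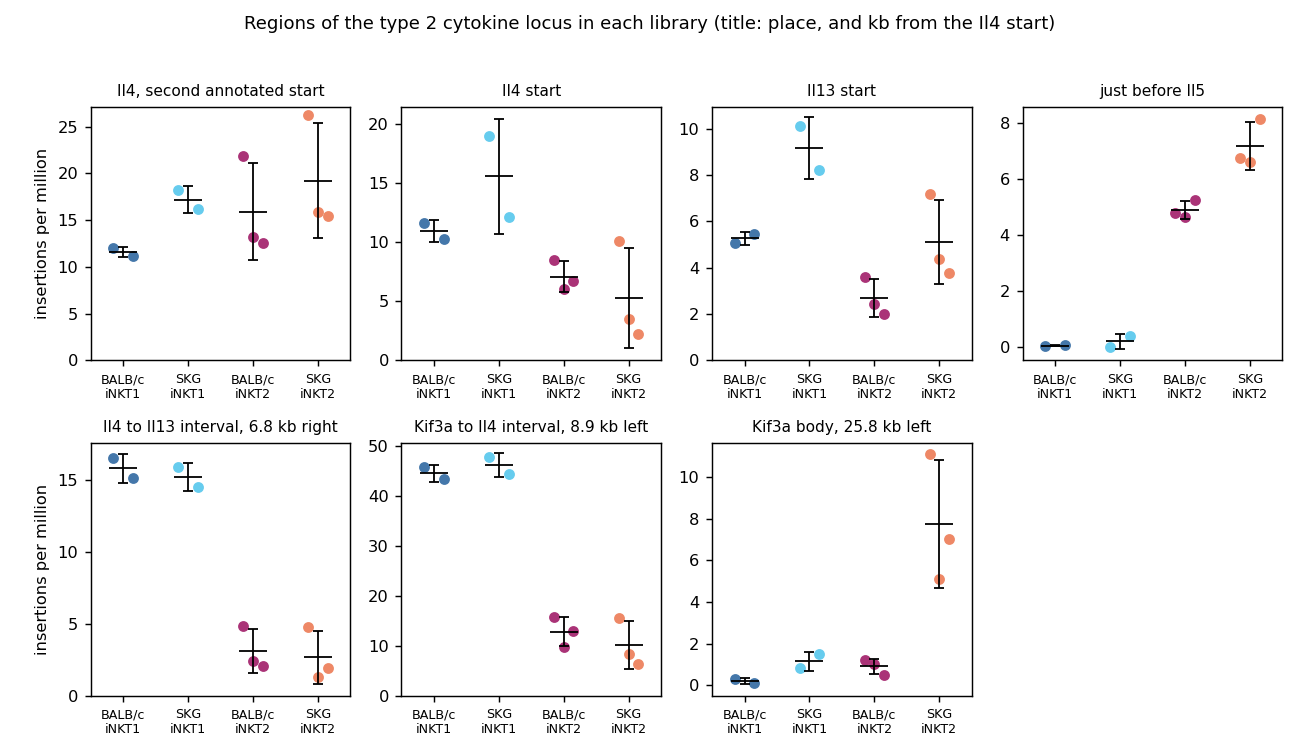
Level in CPM (y axis) in each library (points, numbered from left to right within a group) with group mean and SD (bars), for starts of Il4, Il13 and Il5 and for called regions. All 6 iNKT2 libraries lie above the 4 iNKT1 libraries before Il5, the order is the opposite in the panels 6.8 and 8.9 kb from the Il4 start, and in the Kif3a panel the SKG iNKT2 libraries lie between 5.10 and 11.1.

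Between Il4 and Il13, neighbouring elements moved in opposite directions. Of the 9 intergenic regions there, 2 were higher and 1 lower in BALB/c iNKT2, and 1 was higher and 1 lower in SKG iNKT2. The region at chr11:53625303-53625661 was at 16.5 and 15.1 in BALB/c iNKT1 and 15.9 and 14.5 in SKG iNKT1, against 4.86, 2.41 and 2.06 in BALB/c iNKT2 and 4.78, 1.29 and 1.89 in SKG iNKT2. Both subset changes were called, at -2.34 ± 0.384 and -2.44 ± 0.400 (edgeR adjusted p = 8.4e-05 and 1.2e-04). Closer to Il4, the region at chr11:53621493-53621957 rose from 0.119 and 0.397 in BALB/c iNKT1 to 2.95, 1.64 and 1.57 in BALB/c iNKT2, and from 0.450 and 0.257 in SKG iNKT1 to 4.07, 1.97 and 2.02 in SKG iNKT2. These changes were 3.09 ± 0.557 and 2.95 ± 0.577 (edgeR adjusted p = 1.9e-04 and 5.6e-04). The BALB/c call was lost, by its adjusted p, without BALB/c iNKT1 replicate 1 (log2 2.41) and with quantile normalization (2.19). The SKG call was lost in the same way without SKG iNKT1 replicate 2 (2.60), with voom and limma (2.88) and with quantile normalization (2.22). The most open region of the interval (chr11:53626687-53627316) stood at 44.8 and 42.3 in BALB/c iNKT1, 37.5 and 38.9 in SKG iNKT1, 31.8, 17.1 and 19.9 in BALB/c iNKT2 and 39.0, 16.7 and 20.6 in SKG iNKT2, and was not called. Summed over the 9 regions, the level was 100 ± 2.75 in BALB/c iNKT1 and 47.7 ± 13.8 in BALB/c iNKT2 (SD, n = 2 and 3).

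Past the 3′ end of the coding Il4 transcripts, within a longer annotated noncoding Il4 transcript, lay a wide region (chr11:53609266-53610306). It was lower in iNKT2 cells in each genotype and called only in SKG. It held 45.7 and 43.3 in BALB/c iNKT1 and 47.8 and 44.4 in SKG iNKT1, and 15.7, 9.84 and 12.9 in BALB/c iNKT2 and 15.6, 8.40 and 6.41 in SKG iNKT2. The groups did not overlap, with changes of -1.80 ± 0.259 in BALB/c, which fell short of 4-fold, and -2.15 ± 0.266 in SKG, which was called (edgeR adjusted p = 2.4e-05 and 7.9e-06). Without SKG iNKT2 replicate 3 the SKG change was -1.93, under 4-fold, and with a replicate block it was -1.99. It was also under 4-fold with library totals (-1.95) and with quantile normalization (-1.86). Within a subset the genotypes overlapped (edgeR adjusted p = 0.96 in iNKT1 and 0.40 in iNKT2).

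The product of Rad50 is part of the complex that senses DNA breaks. Of the 6 regions of the 3′ part of the gene, 2 were higher in BALB/c iNKT2 (33.3%) and 1 in SKG iNKT2 (16.7%). All regions gave 15.5% and 10.2%, so these small counts are not read as particular to the gene. The median log2 change of the 6 was 0.08 in BALB/c and 0.25 in SKG, beside 0.06 and 0.14 over all regions. The named region among those called was intronic (chr11:53650947-53651246). It held 0.0299 and 0.0441 in BALB/c iNKT1, 0.257 and 0.192 in SKG iNKT1, 1.13, 1.48 and 0.495 in BALB/c iNKT2 and 1.34, 0.964 and 1.42 in SKG iNKT2. The changes were 4.70 ± 0.766 and 2.43 ± 0.631 (edgeR adjusted p = 7.7e-05 and 4.7e-03). The pooled BALB/c ratio was 31.1 (exact 95% interval 8.39 to 260), from 2 insertions in iNKT1 and 104 in iNKT2. The BALB/c call was lost with quantile normalization (2.67, voom adjusted p = 0.016). The SKG call was lost with a replicate block (2.33, edgeR adjusted p = 0.015) and in both voom fits. The latter was also lost without SKG iNKT1 replicate 1 (2.65) or 2 (2.24), or SKG iNKT2 replicate 3 (2.35, edgeR adjusted p = 0.012). The Rad50 start (chr11:53706613-53707530, 5′ UTR) was at 18.3 to 29.8 in every library and was called in no comparison.

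Kif3a, a motor subunit of intraflagellar transport, had no change at its start (chr11:53567135-53567773, 5′ UTR) that reached 4-fold. That region was at 20.7 ± 1.35 in BALB/c iNKT1, 20.2 ± 0.429 in SKG iNKT1, 11.3 ± 1.06 in BALB/c iNKT2 and 14.3 ± 3.04 in SKG iNKT2 (SD, n = 2, 2, 3 and 3). Its introns held elements that opened in iNKT2 cells. At chr11:53585589-53585903 the level was 0.119 and 0.220 in BALB/c iNKT1, 0 and 0.128 in SKG iNKT1, 2.76, 2.33 and 2.89 in BALB/c iNKT2 and 2.53, 3.08 and 1.62 in SKG iNKT2. Both subset changes were called, at 3.99 ± 0.486 and 5.14 ± 0.663 (edgeR adjusted p = 4.9e-06 and 1.2e-05), and the genotypes overlapped within each subset.

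Between the genotypes, the cytokine locus held 1 called region. In iNKT2 cells 1 of 58 regions was higher and none lower in SKG (1.72%), where 0.252% of all regions were higher and 4.73% lower. In iNKT1 cells none was called by edgeR, where all regions gave 0.281% higher and 0.732% lower, and DESeq2 called 1. An unadjusted p under 0.05 was seen for 13 of the 58 (22.4%), beside 17.1% of all regions. The called region, in a Kif3a intron (chr11:53592723-53593046), held 0.299 and 0.0882 in BALB/c iNKT1, 0.835 and 1.48 in SKG iNKT1, 1.19, 1.01 and 0.495 in BALB/c iNKT2 and 11.1, 5.10 and 7.01 in SKG iNKT2. The 3 SKG iNKT2 libraries lay above all 7 others, and SKG lay above BALB/c in iNKT1 as well. The SKG effect was 3.08 ± 0.356 in iNKT2 (8.48-fold, edgeR adjusted p = 1.9e-05) and 2.43 ± 0.652 in iNKT1 (edgeR adjusted p = 0.042), and the difference between these effects, 0.65 ± 0.817, did not pass (edgeR adjusted p = 0.71). The iNKT1 effect is the 1 called by DESeq2, and a replicate block also called it. The subset changes there were 2.10 ± 0.584 in BALB/c and 2.75 ± 0.439 in SKG (edgeR adjusted p = 5.5e-03 and 9.2e-05), and the BALB/c call was lost in 8 of 18 alternatives, 4 of them leaving out a library. These were BALB/c iNKT1 replicate 1 (edgeR adjusted p = 0.013) or 2 (0.060) and BALB/c iNKT2 replicate 1 (0.012) or 2 (0.015). Across the locus, 50 of 58 regions had a log2 difference above 0 between SKG and BALB/c iNKT2, with a median of 0.34 beside 0.01 over all regions. This was not particular to the locus, as the 759 regions of the pathway list below had a median of 0.26. In the Gata3 window the median was -0.09, and 0.21 in the Gata3 body.

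The iNKT2 libraries numbered 1 stood apart at this locus in both genotypes. From Kif3a to Il13, library 1 was the highest of its group of 3 in 26 of 29 regions in BALB/c and 28 of 29 in SKG. It was highest in both genotypes in 26 of 29 regions (89.7%), compared with 25.6% of all regions and 13.9% of the Gata3 window. The stretch was chosen after the data were seen, and over the whole cytokine locus the count was 36 of 58 (62.1%). Summed over the 5 regions of the Il4 body, the level was 44.0, 29.4 and 29.8 in BALB/c iNKT2 libraries 1, 2 and 3 and 60.2, 29.9 and 28 in the SKG iNKT2 libraries. The median log2 ratio of library 1 to the mean of the others, with 1 added to each level, was 0.36 in BALB/c and 0.69 in SKG over those 29 regions, and -0.01 and 0.05 over all regions. Library 1 also had the highest summed level of the iNKT1 markers in its group (52.6 beside 44.8 and 44.4 in BALB/c, 63.8 beside 43.8 and 47.3 in SKG) and the lowest of the iNKT17 markers (8.31 beside 11.2 and 12.4, 6.33 beside 8.45 and 7.62). The part of these in the pattern was not tested. With both libraries left out, a choice made after the data were seen, the subset counts were 9 higher and 3 lower in BALB/c and 6 higher and 5 lower in SKG.

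**Figure D3:**
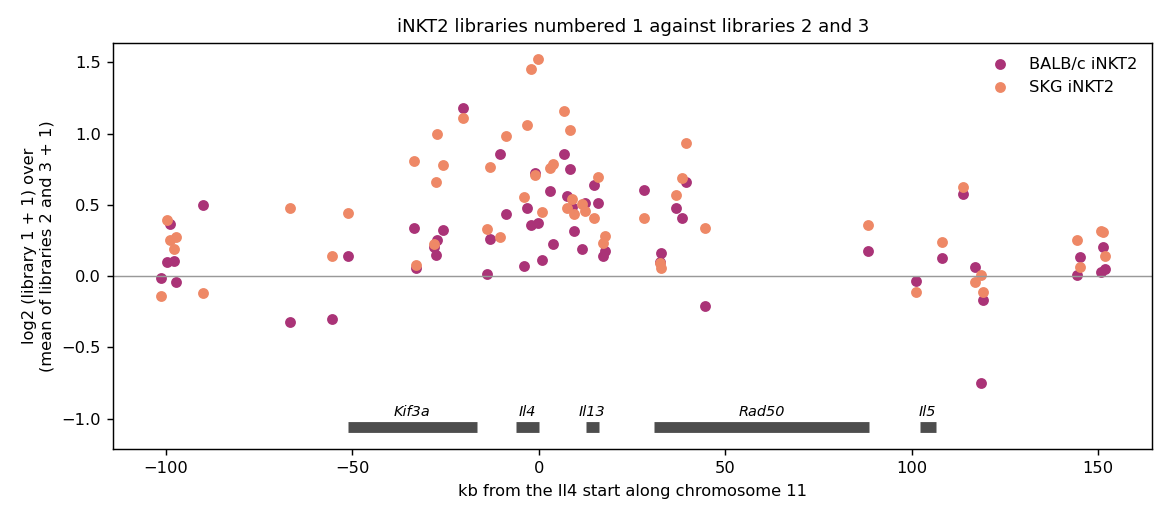
Log2 ratio of iNKT2 library 1 to the mean of libraries 2 and 3, with 1 added to each level (y axis), for the 58 regions of the cytokine locus by distance from the Il4 start (x axis), in BALB/c and SKG, with gene bodies as bars. From the Kif3a body to the Il13 body the points lie above 0 in both genotypes, and around Il5 they lie on both sides of it.

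At Gata3 no difference was called at the start, while distal elements on both sides differed between subsets. The region over the principal start (chr2:9877828-9879839, 5′ UTR, overlapping the antisense gene Gm13256) held 125 and 116 in BALB/c iNKT1, 146 and 133 in SKG iNKT1, 86.7, 102 and 111 in BALB/c iNKT2 and 92.1, 133 and 123 in SKG iNKT2. No difference passed: the subset changes were -0.27 ± 0.155 in each genotype and the SKG effects 0.21 ± 0.171 in iNKT1 and 0.22 ± 0.140 in iNKT2 (edgeR adjusted p = 0.14, 0.17, 0.61 and 0.28). Of the 79 regions, 13 were higher in iNKT2 and 1 lower in BALB/c mice (16.5% and 1.27%), and in SKG mice 8 were higher and 4 lower (10.1% and 5.06%). The shares over all regions are those given above, and those called higher were again near them. All 8 regions called higher in SKG were among the 13 of BALB/c, which is 61.5% of the BALB/c list. For this overlap too, the share over all regions is not given, so it is not read as particular to Gata3.

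**Figure D4:**
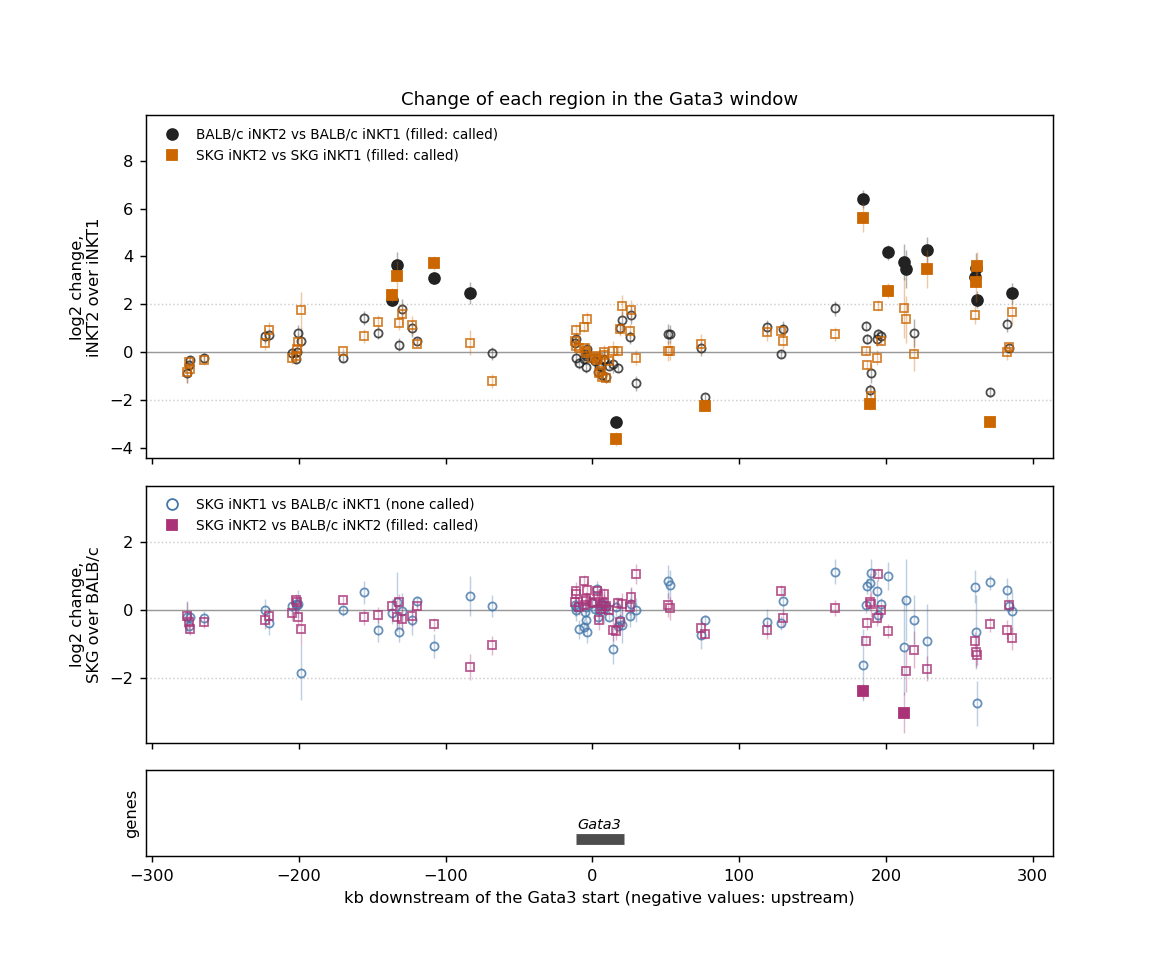
Log2 change of each of the 79 regions of the Gata3 window (y axis, with standard errors) by distance in kb downstream of the Gata3 start (x axis, negative values upstream), between subsets (top) and between genotypes (bottom). Filled symbols passed an adjusted p under 0.01 and 4-fold (dotted lines). The regions higher in iNKT2 lie beyond 150 kb downstream and between 50 and 150 kb upstream, and the gene body has 1 region called, which is lower.

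The regions higher in iNKT2 lay in 2 stretches. Of 21 regions 150 to 300 kb downstream, 9 were higher in BALB/c and 5 in SKG, and of 10 regions 50 to 150 kb upstream, 4 and 3 were. None of the 24 regions of the gene body and none of the other 24 regions was higher. The largest change called there was at chr2:9693860-9694175, 184.6 kb downstream and intergenic. It held 0.0896 and 0.132 in BALB/c iNKT1 and 0 and 0.0642 in SKG iNKT1, but 9.32, 9.39 and 9.73 in BALB/c iNKT2 and 1.84, 1.52 and 2.16 in SKG iNKT2. The subset changes were 6.40 ± 0.372 and 5.62 ± 0.606 (edgeR adjusted p = 7.5e-09 and 2.1e-06), and from the 1 insertion in SKG iNKT1 against 127 the pooled SKG ratio was 56.3 (exact 95% interval 9.93 to 2240). At 201.3 kb downstream (chr2:9677106-9677567) the level was 0.508 and 0.441 in BALB/c iNKT1, 0.771 and 1.15 in SKG iNKT1, 9.91, 8.57 and 7.63 in BALB/c iNKT2 and 6.30, 6.57 and 4.11 in SKG iNKT2. Those changes were 4.17 ± 0.314 and 2.56 ± 0.310 (edgeR adjusted p = 5.3e-08 and 6.3e-06). At 260.8 kb (chr2:9617647-9617959) the BALB/c change of 3.14 ± 0.356 was called (edgeR adjusted p = 2.4e-06) and the SKG change of 1.56 ± 0.379 did not reach 4-fold (edgeR adjusted p = 3.0e-03). The difference between those genotype values was not established (interaction -1.58 ± 0.545, edgeR adjusted p = 0.12).

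Upstream, the iNKT2 elements lay in introns of Taf3, which encodes a subunit of the general factor TFIID. At chr2:9986130-9986493, 107.7 kb upstream of Gata3, the level was 1.40 and 1.68 in BALB/c iNKT1, 0.771 and 0.706 in SKG iNKT1, 14.9, 14.2 and 9.73 in BALB/c iNKT2 and 9.33, 8.86 and 11.1 in SKG iNKT2. The changes were 3.08 ± 0.250 and 3.71 ± 0.301 (edgeR adjusted p = 1.0e-07 and 1.4e-07), and the genotypes overlapped in iNKT2. A second Taf3 intron region at chr2:10014948-10015612 rose from 1.55 ± 0.133 to 7.04 ± 1.44 in BALB/c and from 1.48 ± 0.543 to 7.71 ± 0.302 in SKG (SD, n = 2 and 3). These were changes of 2.18 ± 0.257 and 2.38 ± 0.280 (edgeR adjusted p = 3.5e-06 and 4.7e-06). Which gene these elements act on was not measured.

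Regions more open in iNKT1 lay in and downstream of the gene. In a Gata3 intron, 16.1 kb after the start (chr2:9862337-9862717), the level was 18.0 and 16.1 in BALB/c iNKT1 and 18.4 and 18.3 in SKG iNKT1, against 2.38, 1.90 and 2.51 in BALB/c iNKT2 and 2.17, 1.29 and 0.674 in SKG iNKT2. This was the 1 region called lower in BALB/c iNKT2, at -2.92 ± 0.263, and it was also lower in SKG, at -3.63 ± 0.283 (edgeR adjusted p = 2.7e-07 and 9.9e-08). At 76.9 kb downstream (chr2:9801388-9801942, intergenic) the level was 58.1 and 62.7 in BALB/c iNKT1, 44.3 and 54.0 in SKG iNKT1, 18.3, 14.6 and 16.4 in BALB/c iNKT2 and 11.7, 10.0 and 8.63 in SKG iNKT2. The change was -1.88 ± 0.152 in BALB/c, short of 4-fold, and -2.27 ± 0.158 in SKG, which was called except under quantile normalization (edgeR adjusted p = 1.0e-07 and 3.8e-08). At 270.7 kb (chr2:9607665-9608071) the BALB/c libraries were at 5.91 in both iNKT1 and at 2.07, 1.69 and 1.73 in iNKT2, and the SKG libraries at 10.2 and 10.6 in iNKT1 and 1.25, 1.47 and 1.42 in iNKT2. The SKG change of -2.92 ± 0.216 was called (edgeR adjusted p = 6.0e-08) and the BALB/c change of -1.69 ± 0.204 was not 4-fold.

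By level alone, the most open regions of the window other than the Gata3 start were shared by all groups. One, at 283.7 kb downstream (chr2:9593920-9595836), overlaps the long noncoding RNA gene Gm13218. It was at 78.7 ± 5.97 in BALB/c iNKT1, 85.9 ± 7.27 in SKG iNKT1, 88.3 ± 6.90 in BALB/c iNKT2 and 98.0 ± 25.6 in SKG iNKT2 (SD, n = 2, 2, 3 and 3), and all pairs of groups compared overlapped. The other lay over the starts of Atp5c1 and Kin (chr2:10080337-10081001), at 51.7 to 88.6.

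**Figure D5:**
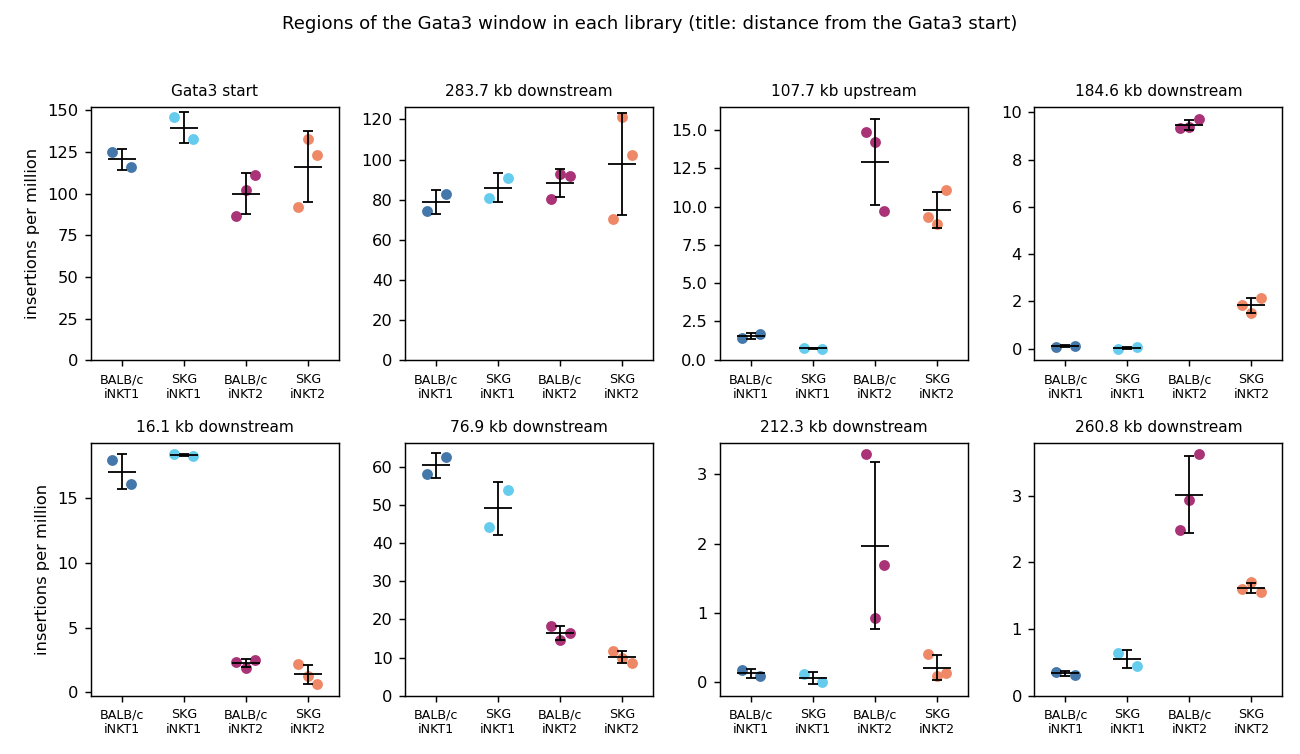
Level in CPM (y axis) in each library (points, numbered from left to right within a group) with group mean and SD (bars) for 8 regions of the Gata3 window. No difference was called at the start or 283.7 kb downstream, while at 184.6 kb the BALB/c iNKT2 libraries lie at 9.32 to 9.73 and the SKG iNKT2 libraries at 1.52 to 2.16.

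Between the genotypes, 2 of 79 regions were lower in SKG iNKT2 (2.53%) and none was higher, where 4.73% of all regions were lower and 0.252% higher. In iNKT1 none was called by edgeR or DESeq2, where all regions gave 0.281% higher and 0.732% lower, and 12 of the 79 had an unadjusted p under 0.05 (15.2%, beside 17.1% of all regions). Both iNKT2 calls lay in the stretch 150 to 300 kb downstream. The region at 184.6 kb was 5.19-fold lower in SKG iNKT2 (log2 -2.38 ± 0.217, edgeR adjusted p = 2.4e-06), with no overlap between the groups and the call kept in all 18 alternatives run. At 212.3 kb (chr2:9666101-9666400, intergenic) the level was 3.29, 0.926 and 1.69 in BALB/c iNKT2 and 0.416, 0.0918 and 0.135 in SKG iNKT2. The log2 change was -3.00 ± 0.610 (edgeR adjusted p = 2.1e-03), and it lost its call in both voom fits and without SKG iNKT2 replicate 2 (-2.65, edgeR adjusted p = 0.012) or 3 (-2.81, edgeR adjusted p = 0.011). Of the 21 regions in that stretch, 15 had a log2 difference below 0 between SKG and BALB/c iNKT2, with a median of -0.61 beside 0.01 over all regions. The stretch held 9 of the 13 regions of the window called higher in BALB/c iNKT2, a call made from the same BALB/c iNKT2 libraries. Of those 13, 12 were below 0 between the genotypes, with a median of -1.23. The median over all regions is thus not a like comparison. At the starts of the iNKT17 genes, the means in BALB/c and SKG iNKT2 were 5.46 and 1.16 for Il17a, 4.24 and 3.58 for Il23r and 0.937 and 2.72 for Ccr6, so the 3 did not differ in 1 direction. Their part in these differences was not tested.

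Not every region there moved that way. At 194.6 kb downstream (chr2:9683745-9684251) the BALB/c iNKT2 libraries were at 5.05, 6.72 and 6.97 and the SKG iNKT2 libraries at 12, 12.8 and 14. This difference of 1.05 ± 0.185 had an edgeR adjusted p of 7.2e-04 but did not reach 4-fold, and the iNKT1 groups overlapped (-0.13 ± 0.257, edgeR adjusted p = 0.87).

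Whether the SKG effect itself differed between the subsets was tested by the interaction, for which 0.189% of all regions were called higher and 0.341% lower. No member was called by edgeR or DESeq2, and the smallest edgeR adjusted p over the 137 members was 0.022. An unadjusted p under 0.05 was seen for 23 of the 137 members (16.8%), beside 19.8% of all regions. The smallest values at Gata3 were 1.33 ± 0.297 for an intronic region upstream of the principal start (chr2:9884072-9884603, edgeR adjusted p = 0.022), -1.24 ± 0.302 at 270.7 kb downstream (0.033), 1.18 ± 0.316 at 194.6 kb (0.047) and 0.94 ± 0.257 at 128.5 kb (chr2:9749846-9750452, 0.050). With a replicate block, the edgeR adjusted p was 4.0e-03 for the intronic region, 0.013 at 270.7 kb, 9.1e-03 at 194.6 kb and 2.8e-03 at 128.5 kb. Without both iNKT2 libraries numbered 1 it was 2.6e-04 at 128.5 kb. None of these changes reached 4-fold, so none was called. At the cytokine locus the 4 smallest in the reported fit were all above 0.1. They were 0.59 ± 0.206 at the Irf1 start (chr11:53769743-53770078, 0.12) and 0.45 ± 0.177 before Irf1 (chr11:53763313-53764227, 0.17), 1.61 ± 0.601 in a Kif3a intron (chr11:53591235-53591560, 0.15) and -0.77 ± 0.301 in a Sept8 intron (chr11:53521233-53521646, 0.17). The Sept8 region was at 4.06 and 3.75 in BALB/c iNKT1 and 10.5 and 16.2 in SKG iNKT1, and at 5.71, 6.59 and 5.24 in BALB/c iNKT2 and 13.3, 10.8 and 10.9 in SKG iNKT2. Here SKG lay above BALB/c in both subsets. Its SKG effects, 1.77 ± 0.239 and 1.00 ± 0.187, had edgeR adjusted p = 4.6e-04 and 1.2e-03 but did not reach 4-fold.

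Letter matches were counted in the 31 members called between the subsets in either genotype. The T-box letters were found in 4 of the 7 regions that were lower in iNKT2 and in none of the 24 that were higher, beside 5.48% of all regions. The GATA letters were found in 3 of 7 and 12 of 24, and the NFAT core in 5 of 7 and 17 of 24. Among all members the palindrome of TTC and GAA spaced by 3 bases, which STAT factors bind, was in 12 of 58 cytokine locus regions (20.7%) and 11 of 79 Gata3 regions (13.9%), compared with 8.75% of all regions. With TTC and GAA spaced by 4 bases, the STAT6 spacing, the shares were 5.17%, 10.1% and 7.25%. These counts are descriptions of small sets.

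In a list of 35 genes of the type 2 programme and its opponents, 34 had regions in their body or within 50 kb of their start, 759 regions in all without the members. In BALB/c mice 89 were higher in iNKT2 and 84 lower (11.7% and 11.1%), beside 15.5% and 6.36% of all regions. In SKG 89 were higher and 64 lower (11.7% and 8.43%), beside 10.2% and 6.96%. By gene, 13 had more higher than lower calls and 13 the reverse in BALB/c, and 14 and 13 in SKG. Tbx21, which encodes T-bet, had 21 of 36 regions lower and none higher in BALB/c and 18 lower in SKG. Runx3, a partner of T-bet in silencing Il4, had 13 and 12 of 34 regions lower and none higher. Il17rb, the receptor for interleukin-25, had 15 of 21 higher and none lower in each genotype, and at its region of smallest adjusted p (chr14:30024311-30024790) the level was 2.81 ± 0.545 in BALB/c iNKT1 and 28.7 ± 1.22 in BALB/c iNKT2. Ccr4, a chemokine receptor of type 2 cells, had 15 higher and 2 lower of 31 in BALB/c. Rora, a nuclear receptor needed by type 2 innate lymphoid cells, had 15 higher and 1 lower of 53 in BALB/c and 16 higher and 1 lower in SKG. Il4ra, the receptor chain for interleukin-4 and interleukin-13, had 10 of 28 lower and none higher in BALB/c, and 2 higher and 4 lower in SKG.

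Between the genotypes 14 of the 759 regions were higher and 17 lower in SKG iNKT2 (1.84% and 2.24%), beside 0.252% and 4.73% of all regions. In SKG iNKT1 2 were higher and 12 lower (0.264% and 1.58%), beside 0.281% and 0.732%. In iNKT2 cells 8 genes had at least 1 higher region and 10 at least 1 lower region. Il4ra had 7 regions higher and none lower in SKG iNKT2, with the smallest adjusted p at chr7:125580944-125581763, where the level was 13.2 ± 0.149 in BALB/c iNKT2 and 56.1 ± 12.6 in SKG iNKT2 (log2 2.10 ± 0.168, edgeR adjusted p = 7.7e-07). Maf, which activates Il4, had 3 of 15 lower in SKG iNKT2, and at chr8:115742597-115742955 the level was 4.30 ± 0.450 in BALB/c and 0.212 ± 0.123 in SKG (log2 -4.39 ± 0.393, edgeR adjusted p = 2.0e-06). Il10 had 6 of 18 lower in SKG iNKT1 and 3 lower in SKG iNKT2. Both regions of Areg, which encodes amphiregulin, were lower in SKG iNKT2.

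Promoter regions with the most similar pattern over the 10 libraries were found by Pearson's r of log2(level + 1) among 11013 promoter regions, as a description only. The region before Il5 was nearest to the promoters of Dlgap4 and Begain (r = 0.990 each) and Matn2 (r = 0.988). The Il13 start was nearest to D8Ertd738e, Gstp1 and Axin2 (0.975, 0.973 and 0.971), and the Gata3 start to Zfand5, 1190002N15Rik and Rab11fip1 (0.987, 0.985 and 0.981). The Il4 start was nearest to Camk1, Ano8 and Gpsm3 (0.962, 0.952 and 0.951), and its second region to Mpp2 (0.910) and to the shared promoter of B4galnt3 and D330020A13Rik (0.904).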

How the data were processed

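Thymic iNKT1 and iNKT2 cells of BALB/c and SKG mice were profiled by ATAC-seq in 10 libraries. Per the labels and the methods of the study, the authors demultiplexed reads with bcl2fastq, aligned them to mm10 with Bowtie 1.0, trimmed unmapped reads with Trim Galore and aligned those again, removed duplicates with Picard, called peaks with MACS2, and merged them over replicates into 1 set of regions. The deposited table holds whole-number counts of transposase insertions per region, although it is named as normalized, and the authors had not scaled it. The position of the cut was thus set before deposit.

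All 94823 regions and all 4 groups were fitted together with edgeR 4.0.16 (TMM factors, quasi-likelihood test, Benjamini-Hochberg adjustment) in R 4.3.3, and a region was called at an adjusted p under 0.01 with at least 4-fold change. Standard errors were derived from the F statistics. All 137 members were tested. DESeq2 1.42.0, voom with limma 3.58.1, library totals without TMM, a filter on low counts, a replicate block, other thresholds and leaving out each library in turn were alternatives. Counting intervals are exact 95% intervals. Library totals differ by depth, so the shallowest SKG iNKT2 library resolves 0.0674 CPM per insertion and the deepest BALB/c iNKT1 library 0.0299.

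Named regions hold the start of a member (or lie nearest, within 1 kb), are among the 6 of smallest adjusted p per locus and comparison without overlap, the 3 of highest level, or the 4 of smallest interaction p. Not every region so chosen is described. Genes named from the pathway list are among the 6 with the most called regions in a comparison. Gene positions came from GENCODE vM21 and bases from GRCm38. The members and lists were chosen with earlier results of these data known. BALB/c and SKG iNKT2 libraries with the same number had r = 0.555, 0.206 and 0.248 between their deviations from the group means, but BALB/c 3 with SKG 2 (0.335) and BALB/c 2 with SKG 3 (0.23) were as alike, so numbers 2 and 3 were not told apart, and the labels give no shared origin. The functions were tested on simulated counts. One listed marker gene is not reported here.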

Additional observations from a re-analysis of the deposited data

How the results depend on the processing

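Of 33 called changes of named regions, 23 kept their call in all 18 alternatives that refitted the model, and 10 lost it in at least 1. The count of regions called moved with the threshold and, at Gata3, with the window. At an adjusted p under 0.05 and 2-fold, the cytokine locus had 24 regions called between subsets in BALB/c and 20 in SKG, and 3 between genotypes in each subset, in place of 12, 10, 0 (iNKT1) and 1 (iNKT2). The Gata3 window had 28, 27, 1 and 9 in the same order, in place of 14, 12, 0 and 2, with 3 in place of 0 for the interaction. With no minimum fold, the cytokine locus had 28, 20, 1 and 6 and the Gata3 window 37, 29, 0 and 9. Over all regions the looser rule called 42.7%, 36.6%, 4.25% and 14.5%, and no minimum fold 49.1%, 35.9%, 2.08% and 14.2%. For the interaction these shares were 3.68% and 0.925%. The higher counts are to be read against these. With no minimum fold the members' shares were 48.3%, 34.5%, 1.72% and 10.3% at the cytokine locus. In the Gata3 window they were 46.8%, 36.7%, 0% and 11.4%. Quantile normalization lowered the cytokine locus to 5 in each genotype, 2 higher and 3 lower in BALB/c iNKT2 and 3 higher and 2 lower in SKG iNKT2. The BALB/c calls of the pathway list moved the same way, to 55 higher and 111 lower from 89 and 84. The share of all regions called under that normalization is not given here. The shift is therefore not read as particular to the locus. At Gata3, quantile normalization and voom each left 1 of the 2 genotype calls. Within 100 kb of Gata3, a window that holds fewer regions, the calls were 2, 2 and, between genotypes in iNKT2, 0.

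For the genotypes in iNKT1 cells, DESeq2, the replicate block and leaving out both iNKT2 libraries numbered 1 each called 1 region of the cytokine locus, and the last also called 1 of the Gata3 window. With the replicate block the iNKT2 genotype counts stayed at 1 and 2. Leaving out 1 library gave 7 to 13 (BALB/c) and 8 to 11 (SKG) subset calls at the cytokine locus, 0 to 1 and 1 to 2 genotype calls (iNKT1 and iNKT2) and 0 for the interaction. The 7 came without BALB/c iNKT1 replicate 1, the 1 for iNKT1 when SKG iNKT1 replicate 1 was dropped, and the 2 for iNKT2 when BALB/c iNKT2 replicate 1 was. The Gata3 ranges were 13 to 14, 10 to 13, 0 to 0, 1 to 2 and 0 to 0, with 1 without SKG iNKT2 replicate 2 or 3. The causes were not tested.

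For the 759 regions of the pathway list, the looser rule gave 344, 301, 53 and 105 calls and 26 for the interaction, and no minimum fold gave 397, 310, 29, 129 and 11, in place of 173, 153, 14, 31 and 6. The shares of all regions under both rules are those given above. The iNKT1 genotype count was 28 without both iNKT2 libraries numbered 1, 26 with the groups compared alone, 22 with the replicate block, 6 with voom and 3 with quantile normalization, which gave 50 for iNKT2. The interaction count was 14 without the libraries numbered 1, 13 with the replicate block, 2 with library totals and 2 with voom. Leaving out 1 library gave 141 to 178, 128 to 154, 0 to 20, 26 to 35 and 1 to 10. The iNKT1 genotype count was 0 and 1 without SKG iNKT1 replicate 1 and 2, and 1 and 4 without BALB/c iNKT1 replicate 1 and 2. The interaction count was 1 to 3 without either library of either iNKT1 group, BALB/c iNKT2 replicate 2 or 3 or SKG iNKT2 replicate 3, and rose to 10 when BALB/c iNKT2 replicate 1 was dropped.

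Some uncalled log2 values at gene starts changed sign. The Gata3 start between subsets in BALB/c was 0.00 with library totals and 0.01 with quantile normalization, and between genotypes in iNKT2 -0.07 with the latter. The second Il4 start between subsets in SKG was -0.14 without both libraries numbered 1 and -0.13 to 0.31 when 1 library was left out, the lowest without SKG iNKT2 replicate 1, which also gave -0.02 in a range of -0.02 to 0.59 between genotypes in iNKT2. The region before Il5 was -3.08 between genotypes in iNKT1 without SKG iNKT1 replicate 2, in a range of -3.08 to 3.27. The Kif3a start there was 0.00 with DESeq2 and ranged from -0.10 to 0.04, the highest without BALB/c iNKT1 replicate 1. The Rad50 start between subsets was 0.04 in BALB/c with quantile normalization, and in SKG 0.07 with library totals and 0.18 with quantile normalization. Library totals moved the median of all regions to 0.34 in BALB/c and 0.32 in SKG, from 0.06 and 0.14. Depth limits the regions with few insertions in iNKT1, whose fitted changes depend on the prior count.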
